A study of Mus musculus with 6 samples.

Results

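The genes described here are a set of 10 tied to the tumour suppressor p53: Trp53 itself and 9 genes that p53 induces, namely Trp53inp1, Gadd45a, Cdkn1a, Mdm2, Ccng1, Sesn1, Btg2, Phlda3 and Zmat3. A gene was taken where a probe set of the array, the group of probes that reads one transcript, is annotated to its symbol alone. That held for 8 of the 10 genes, with 1 probe set each, out of 19937 genes read this way. The probe set that carries Cdkn1a is annotated to a second symbol as well. No probe set is annotated to Trp53 alone in the annotation used. The levels of p53 and p21 transcripts are therefore not given.

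The 6 samples were pre-granulocyte-macrophage progenitors (PreGMs) sorted from the bone marrow of female C57BL/6 mice, 3 labelled Cebpa flox/flox;Mx1Cre and 3 labelled Cebpa flox/flox. All 6 mice carried both floxed alleles and were killed 18 days after injection of pIC, a double-stranded RNA mimic that induces interferon. The Mx1 promoter that drives Cre answers to interferon in many cell types, so recombination is not limited to PreGMs. PreGMs were gated as negative for lineage markers, Sca1, CD150, CD41, FcγRII and endoglin and positive for Kit. Kit averaged 10.6 in the arrays labelled Mx1Cre and 10.5 in those labelled flox/flox, on a log2 scale whose upper quartile over genes was 8.07. Slamf1, which encodes the excluded CD150, averaged 5.29 in the arrays labelled Mx1Cre and 5.46 in those labelled flox/flox, below the lower quartile of 5.63. Other genes of the excluded antigens read above the median of 6.64: Itga2b (CD41) averaged 7.63 in Mx1Cre and 7.95 in flox/flox, Eng (endoglin) 7.31 in Mx1Cre and 7.37 in flox/flox, and Fcgr2b (FcγRII) 7.16 in Mx1Cre and 6.74 in flox/flox. Fcgr2b was called higher (limma adjusted p = 0.0410), and Fcgr3, which encodes the related receptor FcγRIII, was called lower, at 7.09 in Mx1Cre and 8.14 in flox/flox (0.00970).

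p53 is a transcription factor that is kept low in unstressed cells because Mdm2 tags it for degradation, and that accumulates when DNA is damaged or a cell is otherwise stressed. It then switches on genes that halt the cell cycle, dampen growth signalling or start apoptosis, and it also switches on Mdm2, which closes a feedback loop. In blood-forming tissue p53 is best known for halting or killing stem and progenitor cells whose DNA is damaged. Several of its targets, Btg2, Gadd45a and Sesn1 among them, also answer to other transcription factors.

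Cebpa, the gene that carries the loxP sites, read against its labels. It averaged 9.0 ± 0.30 in the arrays labelled Mx1Cre and 6.83 ± 0.11 in those labelled flox/flox (log2, SD, n = 3 each), a difference of 2.17 ± 0.14 (SE, limma adjusted p = 2.65e-05). It is not known whether the probes lie in the deleted part of the gene. Every direction given here takes the deposited labels at their word and would be the opposite with the groups' labels swapped.

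Of the 8 measured genes, 3 (against 4.91% of all genes in either direction) were lower in the arrays labelled Mx1Cre: Trp53inp1, Btg2 and Gadd45a, by 2.38-fold, 2.14-fold and 1.69-fold. None was higher. The other 5 did not pass the threshold, an adjusted p under 0.05 over all genes in limma. Over all 19937 genes 2.28% were called lower and 2.63% higher. These shares include dim genes, whereas 6 of the 8 measured genes lay above the upper quartile of level. With only the 9968 genes above the median level tested, 1065 were called in either direction, a larger share. At an unadjusted p under 0.05 the measured genes numbered 4, all lower, where 16.4% of all genes reached that level in either direction. Differences were below 0 for 7 of the 8, and the median difference was -0.31 log2 units against -0.01 over all genes. The groups did not overlap for 5 of the 8, all lower in the arrays labelled Mx1Cre, where 11.0% of all genes did so in that direction. For 1 gene at a time, an exact permutation of 3 against 3 arrays cannot give a two-sided p below 0.1.

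**Figure D1:**
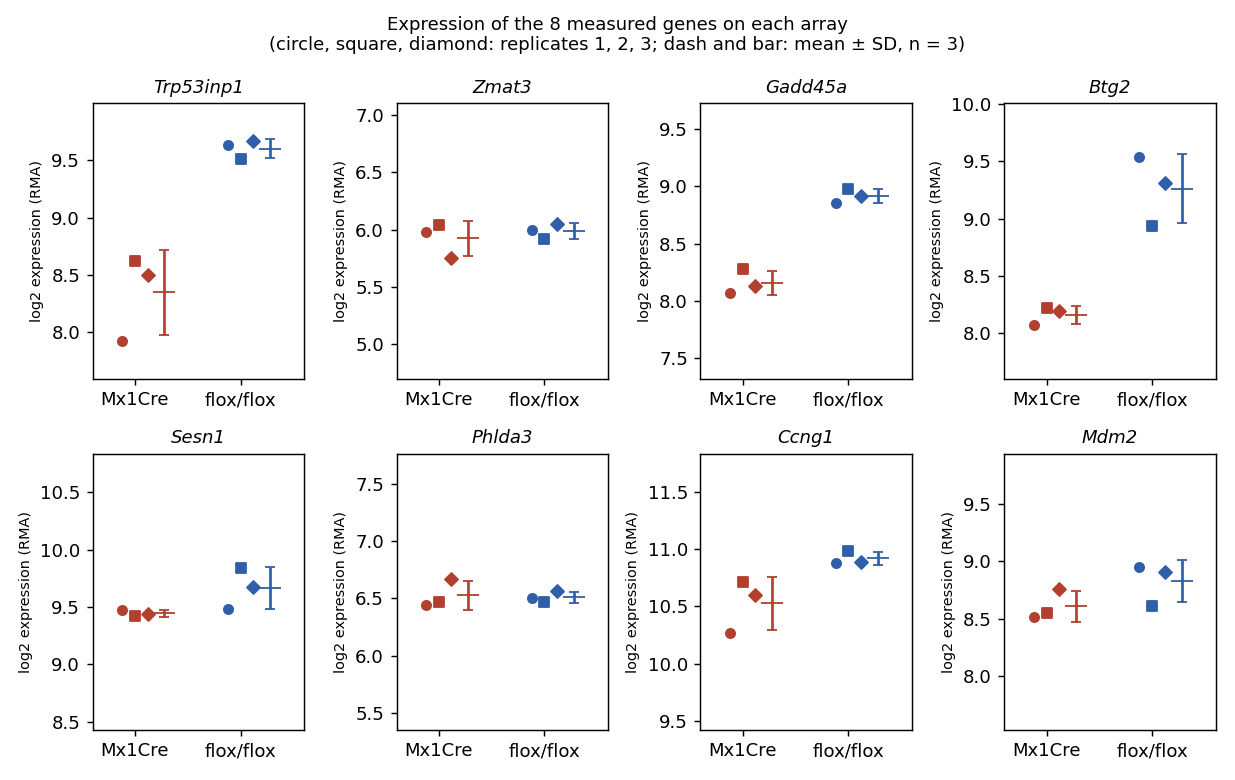
Log2 expression (vertical axis, RMA units, the same span in every panel) of the 8 measured p53-induced genes in the 3 arrays labelled Mx1Cre and the 3 labelled flox/flox. Each point is 1 mouse and the dash with its bar is the mean ± SD. Trp53inp1, Gadd45a and Btg2 show a clear gap between the labels, while Phlda3, Zmat3 and Mdm2 overlap.

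Trp53inp1 and Zmat3 work through other regulators, of transcription and of RNA. Trp53inp1 encodes a nuclear protein, induced by p53, that helps p53 turn towards apoptosis and takes part in autophagy. It read 7.93, 8.62 and 8.50 in the arrays labelled Mx1Cre, against 9.63, 9.51 and 9.67 in those labelled flox/flox. All 3 arrays labelled Mx1Cre lay below every array labelled flox/flox, and Mx1Cre replicate 1 was the lowest by a wide margin. The difference was -1.25 ± 0.16 log2 units (SE, limma adjusted p = 0.00164). It was -1.04 without Mx1Cre replicate 1, and it stayed past the threshold under all 15 alternatives, at adjusted p-values from 0.000459 to 0.0424.

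Zmat3 encodes a zinc finger protein that binds RNA and steers splicing and transcript stability downstream of p53. It was dim, at 5.98, 6.04 and 5.75 in the arrays labelled Mx1Cre and 6.0, 5.91 and 6.05 in those labelled flox/flox. The groups overlapped. The difference was -0.06 log2 units with a 95% interval from -0.29 to 0.16, which leaves room for folds of 0.820 to 1.12 (limma adjusted p = 0.854). RMA compresses dim probe sets, so a change at this level would be understated.

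Among the genes that act directly on cell division, Btg2 and Gadd45a fell. Btg2 belongs to a family of antiproliferative proteins that recruit the CCR4-NOT deadenylase to messenger RNAs, and it holds back entry into S phase. It read 8.08, 8.22 and 8.19 in the arrays labelled Mx1Cre, and 9.53, 8.94 and 9.31 in those labelled flox/flox. The spread was wider in flox/flox, but the groups stayed apart. The difference was -1.10 ± 0.14 log2 units (SE, limma adjusted p = 0.00158), and it ranged from -1.26 to -0.96 over the 15 alternatives, past the threshold in each.

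Gadd45a encodes a small stress-induced protein that binds PCNA and CDK1 and activates the p38 and JNK kinase pathways. Its levels were 8.07, 8.27 and 8.13 in the arrays labelled Mx1Cre, and 8.85, 8.98 and 8.91 in those labelled flox/flox. Both groups were tight, with SDs of 0.11 in the arrays labelled Mx1Cre and 0.062 in those labelled flox/flox. The difference was -0.76 ± 0.09 log2 units (SE, limma adjusted p = 0.00124) and moved only between -0.82 and -0.71 over the alternatives.

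In these bulk samples fewer cells that express such a gene and less transcript per cell cannot be told apart. Cell type markers moved with these falls. Of 11 granulocyte and monocyte markers 10 were called higher and 0 lower. Their mean log2 level ran from 8.77 to 9.18 in the arrays labelled Mx1Cre and from 6.86 to 7.05 in those labelled flox/flox. Of 11 T, NK and innate lymphoid markers 8 were called lower and 0 higher, with mean log2 levels of 6.25 to 6.56 in the arrays labelled Mx1Cre and 7.82 to 8.06 in those labelled flox/flox. Mx1Cre replicate 1 had the lowest value of all 6 arrays for 6 of the 8 p53-induced genes. It also had the lowest mean level of the lymphoid, erythroid, megakaryocyte and gate lists and of the relatives of these genes. It was not the lowest array for the granulocyte and monocyte, mast cell and basophil, and B cell lists. Nor was it the lowest for regulators of p53, other p53 targets and cell cycle partners of p21.

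The markers with the largest rises were Ly86, Ctsg, S100a9 and Mcpt8 (2.77 to 3.83 log2 units), and those with the largest falls Gzmb, Tox, Trat1 and Fcer1a (-4.45 to -1.75). Cd3e, a chain that T cells share, differed by -0.0034 log2 units and read 6.52 under both labels, just under the median of 6.64. Cd3g, another such chain, differed by -0.45 (limma adjusted p = 0.155). Differences were below 0 for all 11 T, NK and innate lymphoid markers. Of 7 erythroid markers 2 were lower, with mean log2 levels of 8.51 to 8.80 in Mx1Cre and 8.98 to 9.29 in flox/flox. Of 3 megakaryocyte markers 1 was lower (6.47 to 6.64 in Mx1Cre, 7.16 to 7.33 in flox/flox). Of 6 mast cell and basophil markers 3 were higher and 2 lower (8.11 to 8.72 in Mx1Cre, 7.91 to 7.98 in flox/flox). Of 4 B cell markers 0 passed in limma and 1 had an unadjusted p under 0.05 (6.44 to 6.52 in Mx1Cre, 6.43 to 6.77 in flox/flox). The gate list also holds Cd34, Ptprc and Fcgr3, which the gate as given above does not name. Of its 8 measured genes 2 were higher and 1 lower (8.29 to 8.40 in Mx1Cre, 8.38 to 8.39 in flox/flox). Those higher were Fcgr2b and Cd34 (1.01 log2 units), and the lower one was Fcgr3. The mean of this list mixes genes of selected and of excluded antigens. RMA gives no value of 0, so absence could not be read from it. The part of these cell types in the falls of Trp53inp1, Btg2 and Gadd45a was not tested.

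RefSeq promoters (mouse build GRCm38.p6, 250 bases before to 50 after each gene's start) were matched to 6 of the 8 measured genes. A p53 half-site, the decamer of which a full response element holds a pair, was found in the window of 4 of the 6, on either strand: Gadd45a, Ccng1, Mdm2 and 1 of the 2 Sesn1 promoters. Of all 32851 RefSeq promoters 8.36% hold one, a share counted by promoter and not by gene. The genes were picked because p53 induces them, so their count beside this share is a description only. No pair with a gap of 0 to 13 bases was found in these 6 genes, and 0.0731% of all promoters hold such a pair. The 4 windows below are shown so that the promoters of the falling genes Btg2 and Gadd45a can be set beside those of Ccng1 and Mdm2, which did not pass. Each is written 5′ to 3′ along the gene's strand, which is the minus strand for all 4. Capitals mark p53 half-sites and GC boxes (GGGCGG or its complement, which 35.7% of all promoters hold).
Btg2: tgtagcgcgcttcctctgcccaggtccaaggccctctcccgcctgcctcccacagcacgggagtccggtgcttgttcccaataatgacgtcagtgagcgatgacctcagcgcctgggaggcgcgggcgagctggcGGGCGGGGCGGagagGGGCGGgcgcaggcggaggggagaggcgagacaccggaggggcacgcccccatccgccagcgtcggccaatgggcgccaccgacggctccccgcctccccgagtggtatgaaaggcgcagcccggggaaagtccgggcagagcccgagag
Gadd45a: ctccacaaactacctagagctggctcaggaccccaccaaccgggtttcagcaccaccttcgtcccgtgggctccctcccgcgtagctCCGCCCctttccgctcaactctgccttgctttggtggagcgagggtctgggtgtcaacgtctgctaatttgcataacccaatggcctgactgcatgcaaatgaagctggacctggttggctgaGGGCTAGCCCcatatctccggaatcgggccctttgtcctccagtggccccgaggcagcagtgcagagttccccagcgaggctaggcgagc
Ccng1: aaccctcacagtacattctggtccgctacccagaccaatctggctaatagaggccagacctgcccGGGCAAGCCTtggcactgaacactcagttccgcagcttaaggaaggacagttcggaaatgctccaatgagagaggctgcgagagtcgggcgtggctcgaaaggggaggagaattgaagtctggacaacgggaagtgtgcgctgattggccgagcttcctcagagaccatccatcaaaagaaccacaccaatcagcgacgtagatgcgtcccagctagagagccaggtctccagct
Mdm2: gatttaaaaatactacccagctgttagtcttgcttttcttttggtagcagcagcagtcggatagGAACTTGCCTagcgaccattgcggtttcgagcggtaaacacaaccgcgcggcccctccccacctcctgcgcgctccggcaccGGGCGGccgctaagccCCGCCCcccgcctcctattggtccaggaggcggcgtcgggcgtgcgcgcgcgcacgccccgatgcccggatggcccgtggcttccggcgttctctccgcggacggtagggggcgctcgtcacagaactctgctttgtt

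These windows lie at chr1:134079106-134079405 (Btg2), chr6:67037358-67037657 (Gadd45a), chr11:40755237-40755536 (Ccng1) and chr10:117710709-117711008 (Mdm2). The Btg2 window has 3 GC boxes, 2 of them overlapping by 1 base, a G+C content of 72% and no half-site, while the median G+C content of all promoters was 52.7%. In Gadd45a the half-site spans bases -40 to -31 from the gene's start. The half-sites of Ccng1 and Mdm2, which were not called, lie further out, at -185 to -176 and -186 to -177. Of the called genes with a window, Gadd45a had a half-site and Btg2 did not. Sequence outside the windows was not searched. The C/EBP type motif TTNNGNAA, on either strand, occurred 1 time in Gadd45a, 2 times in Ccng1 and 0 times in Btg2 and Mdm2, and 40.7% of all promoters hold it. TATAAA was in none of the 4 windows and in 13.6% of all promoters. A match is a description of the letters and not a bound site, and Trp53inp1 and Zmat3 are named only.

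Ccng1, Mdm2 and Sesn1 belong to the feedback and growth signalling arms of the response. Ccng1 encodes cyclin G1, which brings a phosphatase to Mdm2 and so tunes p53 turnover. It read 10.3, 10.7 and 10.6 in the arrays labelled Mx1Cre and 10.9, 11.0 and 10.9 in those labelled flox/flox. The groups did not overlap, with Mx1Cre replicate 1 again the lowest array. The difference was -0.39 ± 0.12 log2 units (SE), with a limma adjusted p of 0.104 and an unadjusted p of 0.00788. Its 95% interval, which carries no correction for the number of genes, ran from -0.65 to -0.13, and none of the 15 alternatives brought the adjusted p under the threshold (0.0536 to 0.304).

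Mdm2 encodes the ubiquitin ligase that degrades p53 and is itself induced by it. It read 8.52, 8.55 and 8.76 in the arrays labelled Mx1Cre against 8.95, 8.61 and 8.91 in those labelled flox/flox. Flox/flox replicate 2 lay within the range of the arrays labelled Mx1Cre. The difference was -0.22 log2 units, with a 95% interval from -0.47 to 0.04 (limma adjusted p = 0.406).

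Sesn1 encodes a sestrin, which restrains the growth kinase mTORC1 when amino acids are scarce. Its values were 9.47, 9.42 and 9.44 in the arrays labelled Mx1Cre and 9.48, 9.84 and 9.68 in those labelled flox/flox. The groups did not overlap, but flox/flox replicate 1 was barely above the highest array labelled Mx1Cre. The difference of -0.22 log2 units had a 95% interval from -0.45 to 0.01 (limma adjusted p = 0.333). It ran from -0.32 without flox/flox replicate 1 to -0.13 without flox/flox replicate 2.

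Phlda3 encodes a pleckstrin homology domain protein that competes with the kinase AKT for membrane lipids. It read 6.44, 6.47 and 6.67 in the arrays labelled Mx1Cre and 6.51, 6.46 and 6.56 in those labelled flox/flox. The groups overlapped throughout. The difference of 0.02 log2 units had a 95% interval from -0.19 to 0.22, or folds of 0.875 to 1.17 (limma adjusted p = 0.970). Phlda3 and Zmat3 were the 2 measured genes below the median level of all genes, and the other 6 lay above the upper quartile.

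**Figure D2:**
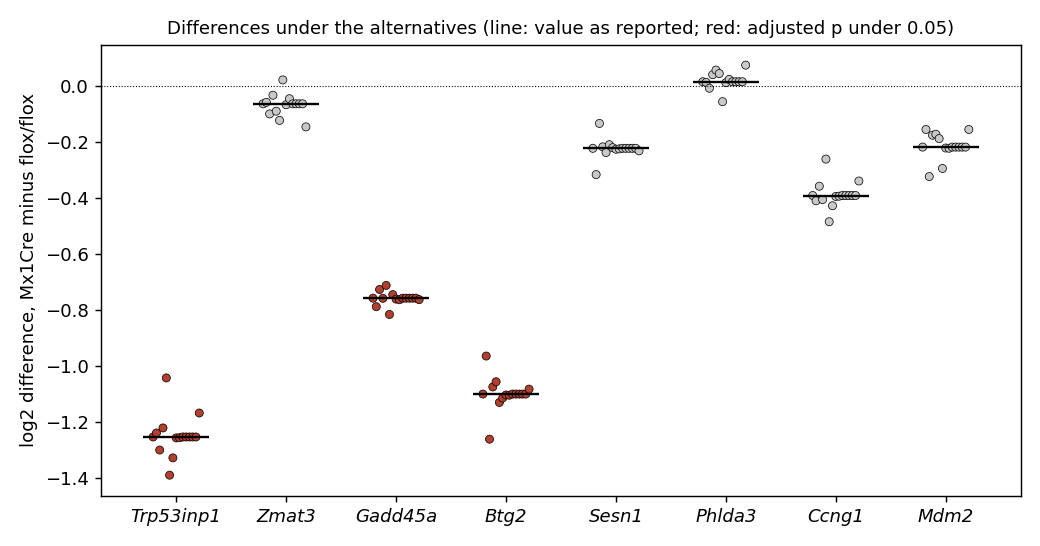
Log2 difference, Mx1Cre minus flox/flox, of the 8 measured p53-induced genes as reported (line) and under each alternative (points, up to 15 per gene, red where the adjusted p was under 0.05). Trp53inp1, Btg2 and Gadd45a stayed between -1.39 and -0.71 with all points red, and Phlda3 and Zmat3 had points on both sides of 0.

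Close relatives of these genes were read on the same arrays. Of 22 measured relatives 2 were called lower in the arrays labelled Mx1Cre and 0 higher, where 2.28% of all genes were called lower. An unadjusted p under 0.05 was reached by 9, all of them lower, against 16.4% of all genes in either direction. Ccng2, which encodes cyclin G2, an unconventional cyclin that is abundant in arrested cells, fell by 0.90 ± 0.11 log2 units (SE, limma adjusted p = 0.00106). It read 8.29, 8.58 and 8.48 in the arrays labelled Mx1Cre against 9.47, 9.27 and 9.29 in those labelled flox/flox, with no overlap and past the threshold under all 15 alternatives. Cdkn1b, the inhibitor p27 and a relative of p21, fell by 0.45 (limma adjusted p = 0.0359), and the call was lost under 9 of 15 alternatives, each left-out array among them. Its adjusted p ranged from 0.0142 to 0.157 over the 15.

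Within families, values stand side by side. In the Gadd45 family, Gadd45b and Gadd45g differed by -0.03 and -0.26 log2 units (limma adjusted p 0.923 and 0.270) beside the fall of Gadd45a. Btg1 and Tob1, of the Btg2 family, differed by -0.41 and -0.40 (limma adjusted p 0.0750 and 0.276), and Trp53inp2 by -0.44 (0.139). Mdm4, the partner of Mdm2, differed by 0.06, and the sestrins Sesn2 and Sesn3 by 0.01 and -0.10. Whether a gene and its relative differed in their change was not tested. The median over the relatives was -0.12 log2 units.

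**Figure D3:**
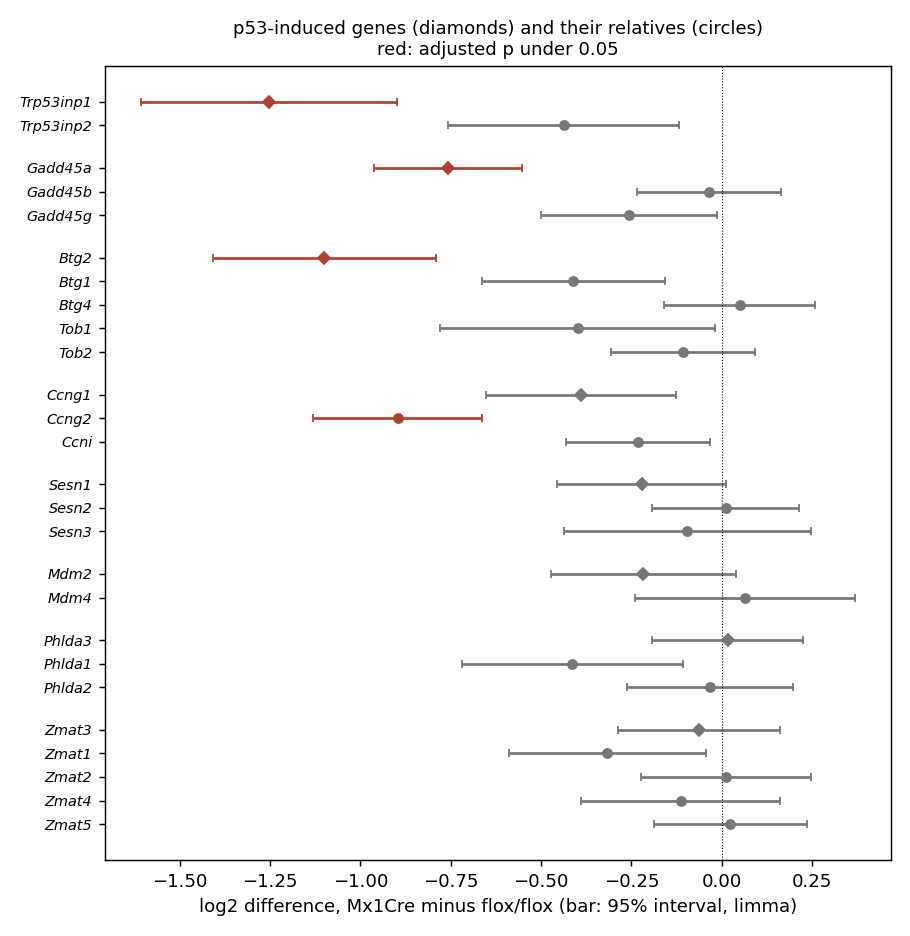
Log2 difference, Mx1Cre minus flox/flox (horizontal axis), with its 95% interval from limma, for each measured p53-induced gene (diamond) and its relatives (circles), family by family. Red marks an adjusted p under 0.05, which Trp53inp1, Gadd45a, Btg2 and Ccng2 reached in this plot.

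Of 22 measured regulators of p53, among them the damage kinases Atm, Atr, Chek1 and Chek2, the ligase Cop1 and the Mdm2 partner Mdm4, 0 passed in limma in either direction and 3 had an unadjusted p under 0.05. Over all genes 4.91% passed and 16.4% had an unadjusted p under 0.05, so these counts are near the background. Their differences lay between -0.18 and 0.41 log2 units with a median of -0.04. Outside the naming rule, the 3 were Chek1 (0.41), Atr (0.31) and Prkdc (0.26), with limma adjusted p-values of 0.149, 0.170 and 0.179. Over all 22 regulators, differences were above 0 for 6 and below 0 for 16, the latter including the damage kinase Chek2 (-0.08). Cdkn2a, the locus of the Mdm2 inhibitor ARF, was dim at 6.0 under both labels.

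Other genes induced by p53, which include the apoptosis mediators Bbc3, Pmaip1 and Fas and the repair genes Ddb2, Xpc and Polk, had 2 of 37 measured members lower and 0 higher, with 11 at an unadjusted p under 0.05. Over all genes 2.28% were called lower, 4.91% were called in either direction and 16.4% had an unadjusted p under 0.05. The 2 of 37 called are close to the background. The 11 of 37 at an unadjusted p under 0.05 are a larger share than over all genes. Of these 11, all but Pidd1, Siva1 and Gtse1 were lower in the arrays labelled Mx1Cre. The median over the 37 was -0.02 log2 units. Dyrk3, a kinase known from erythroid progenitors, differed by -0.49 ± 0.11 (SE, limma adjusted p = 0.0388), and Rprm, reprimo, a mediator of arrest before mitosis, by -0.47 ± 0.11 (SE, 0.0437). Both sat near the threshold: the call was lost for Dyrk3 under 7 and for Rprm under 8 of 15 alternatives, with adjusted p-values up to 0.177 and 0.186. With 1 array left out, Dyrk3 kept the call only without Mx1Cre replicate 2 (-0.61), and Rprm only without flox/flox replicate 3 (-0.55). Bbc3 and Pmaip1, which encode the BH3-only proteins PUMA and NOXA, differed by 0.0047 and -0.10, and Ddb2 by -0.23 (limma adjusted p = 0.208).

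Of 18 measured cell cycle partners of p21, 3 were called higher in the arrays labelled Mx1Cre and 1 lower, against 2.63% and 2.28% of all genes. An unadjusted p under 0.05 was reached by 10 of the 18, against 16.4% of all genes. Without overlap of the groups, 8 were higher and 1 lower, against 10.5% and 11.0% of all genes. The median over the 18 was 0.21 log2 units. Their mean log2 level ran from 9.37 to 9.42 in the arrays labelled Mx1Cre and from 9.0 to 9.25 in those labelled flox/flox, where replicate 1 was the lowest. Ccnd1, cyclin D1, read 8.55, 8.13 and 8.42 in the arrays labelled Mx1Cre and 7.14, 7.42 and 7.28 in those labelled flox/flox, a difference of 1.09 ± 0.12 (SE, limma adjusted p = 0.000850). Ccne2 and E2f1, a cyclin and a transcription factor of S phase entry, rose by 0.44 and 0.37 (limma adjusted p 0.0392 and 0.0412). Rbl2, the pocket protein p130 that silences cell cycle genes in resting cells, fell by 0.47 (limma adjusted p = 0.0220). Only Ccnd1 kept its call under all 15 alternatives. Ccne2 lost it under 8 and E2f1 under 9, whichever array was left out, with adjusted p-values up to 0.164 and 0.146. Rbl2 lost it under 6, including each left-out array except Mx1Cre replicate 3, with adjusted p-values up to 0.115.

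**Figure D4:**
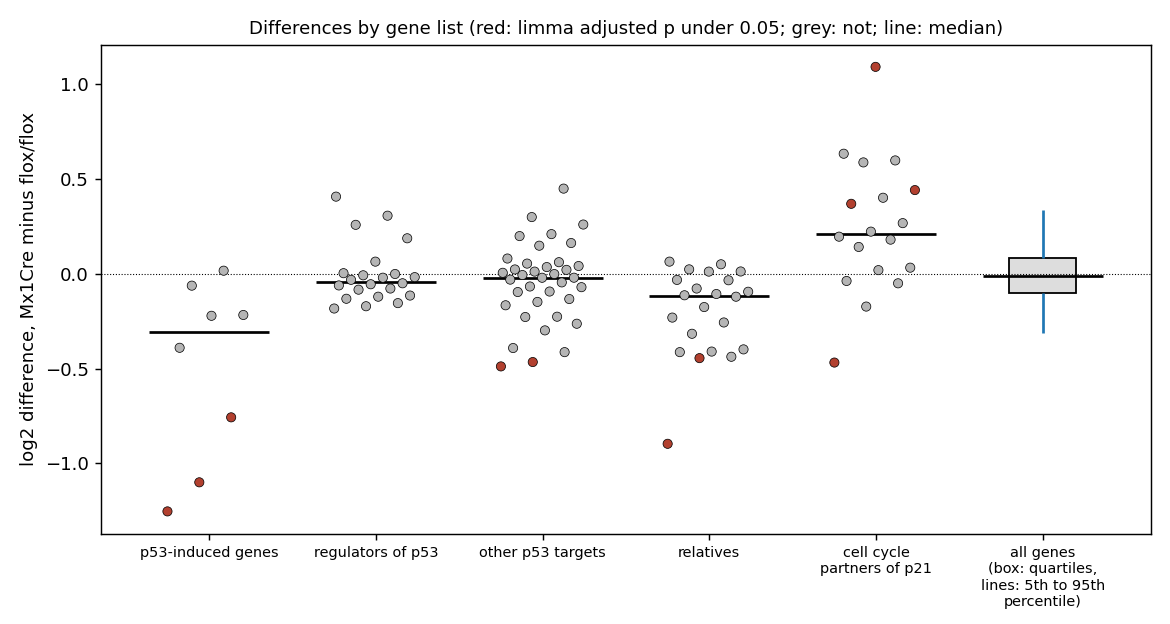
Log2 difference, Mx1Cre minus flox/flox (vertical axis), of every measured gene in 5 lists (points, red where the limma adjusted p was under 0.05) with the list's median as a line, beside the spread of all 19937 genes. The medians were -0.31 for the p53-induced genes described here, -0.04 for regulators of p53, -0.02 for other p53 targets, -0.12 for relatives and 0.21 for cell cycle partners of p21.

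Trp53inp1 had the largest difference of the 8. The 3 genes whose centred values ran closest to it over the 6 arrays were Samd9l, Slc7a8 and Gstm5, with root mean square distances of 0.101, 0.104 and 0.111 log2 units. Samd9l, an interferon-induced restraint on growth factor signalling, read 8.70, 9.21 and 9.24 in the arrays labelled Mx1Cre and 10.3, 10.1 and 10.2 in those labelled flox/flox. Slc7a8, an amino acid transporter, and Gstm5, a glutathione transferase, fell by 1.07 and 1.15 log2 units in the arrays labelled Mx1Cre. In all 3, Mx1Cre replicate 1 was the lowest array, as in Trp53inp1. This likeness was chosen from the same values and is given as a description.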

How the data were processed

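RNA from sorted cells was amplified with a whole-transcriptome kit and hybridised to Affymetrix mouse gene arrays, per the labels' protocols. The deposited values are log2 expression per probe set, made with RMA and the affy software per the submitters' processing notes. Neither versions nor the chip definition and genome build were stated in the labels. The table held 34760 probe sets, 21640 with a single symbol in the platform annotation, which can be old. The brightest probe set by mean over the 6 arrays stood for each of 19937 genes. The difference was Mx1Cre minus flox/flox in limma 3.58.1 (R 4.3.3, lmFit and eBayes), with Benjamini-Hochberg adjustment over all genes and a threshold of 0.05, and the fit was tested on simulated data. Replicates are mice, 3 per genotype by the design text, and the number of arrays limits the precision. Arrays correlated at 0.992 to 0.995 within a label and 0.984 to 0.990 between labels. Levels are set against quartiles of all genes only as a rough guide to brightness, since probes differ in response, and are not compared from gene to gene.

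The members, the gene lists and the tests were chosen with earlier results of these data known. Named genes are all members, Cebpa, up to 4 called genes in each direction from each other list, with cell type markers as 1 list, and the 3 genes nearest to the member of largest difference. Values given for other genes are examples. The alternatives changed the normalization (median centring or cyclic loess), the dim genes kept (2 filters), the rows tested (mean of probe sets, or all probe sets) and the model (replicate block, intensity trend with robust prior, array weights), or left out 1 array.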

Additional observations from a re-analysis of the deposited data

How the results depend on the processing

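Trp53inp1, Gadd45a and Btg2 were called lower and no other measured p53-induced gene was called under each of the 15 alternatives. Cebpa stayed higher in the arrays labelled Mx1Cre under all 15, at 2.02 to 2.32 log2 units (2.02 to 2.32 without 1 array). The count of all genes called was 979 as reported, 538 to 785 without 1 array, and 244 when every probe set was tested. Fewer arrays entered the fits without 1 array. Testing every probe set changes both the number of tests and the variance fit, and which of these lowered the count was not tested. The labels do not say whether replicate numbers pair the arrays, and the correlations did not settle it. Deviations of same-numbered arrays from their group means correlated at 0.19, 0.05 and 0.17. For each flox/flox array the same-numbered Mx1Cre array correlated best. Mx1Cre replicate 2, however, correlated better with flox/flox replicate 3 (0.12) than with flox/flox replicate 2. With the replicate number as a block 1089 genes were called and Trp53inp1, Gadd45a and Btg2 kept their calls. Without 1 array Phlda3 ran from -0.055 to 0.057 log2 units, its sign turning without flox/flox replicate 2 (-0.0074) and without Mx1Cre replicate 3. Zmat3 ran from -0.12 to 0.022, turning without Mx1Cre replicate 3. The cause was not tested, and neither gene was called. The median difference of all genes was -0.0145 with median centring and -0.0053 with cyclic loess, against -0.0112 as reported. Phlda3 and Zmat3 have no value in the filter that keeps genes above the median level.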
